A study of Mus musculus with 40 samples.

Results

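The voltage-gated sodium and calcium channel genes are the 39 of 24060 gene symbols in the count table that are named Scn followed by a number and the letter a or b, or that start with Cacn. They comprise 9 pore-forming sodium channel subunits (Nav alpha), 4 accessory sodium channel subunits (Nav beta), 4 Cav1, 3 Cav2 and 3 Cav3 pore-forming calcium channel subunits, 4 alpha2delta subunits, 4 Cav beta subunits and 8 Cav gamma subunits. The rule uses the symbol only and no measured value, but it was set with earlier results of these data known. Scn2a1, the older symbol under which the table lists the gene for Nav1.2, ends in a digit and is not a member. It is described with the channel partners.

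Voltage-gated sodium channels carry the inward current of the action potential, and their beta subunits set gating and surface expression. Voltage-gated calcium channels turn depolarization into calcium entry. Cav1 channels are L-type channels of soma and dendrites, Cav2 channels drive transmitter release, and Cav3 channels are low-threshold T-type channels. The alpha2delta and beta subunits carry the pores to the membrane, whereas most of the gamma family are transmembrane AMPA receptor regulatory proteins (TARPs) that traffic glutamate receptors. Striatal projection neurons are known for high Scn4b, whose product supports resurgent sodium current. Astrocytes do not fire action potentials.

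RNA was sequenced from mouse striatum in 40 libraries, in 10 groups of 4. RiboTag isolates the RNA bound to ribosomes that carry haemagglutinin-tagged RPL22 by immunoprecipitation (IP). By the study's methods, the input is RNA of the same cleared lysate, from all cell types of the tissue. The labels, however, give the IP and input libraries of the Syn cohort different animal numbers. The Control cohort (C57/BL6NTac) and the Syn cohort (C57/BL6NTac, tag driven by the neuronal hSYN1 promoter) each had 4 input and 4 IP libraries. The SAPAP3 cohort had 4 input and 4 IP libraries each of WT mice (C57/BL6J) and of SAPAP3 knockout mice (C57/BL6J-Dlgap3 KO), and 8 bulk striatal libraries came from 4 WT and 4 SAPAP3 KO mice (strain given as C57/BL6NTac for both genotypes). SAPAP3 KO mice lack a postsynaptic scaffold protein and are used as a model of obsessive compulsive disorder. The labels name no vector for the Control cohort. It was taken as the astrocyte RiboTag (GfaABC1D promoter) because the study's methods describe that tag in mice of this strain, and the tag of the SAPAP3 cohort is not named in the labels or the methods. The tags were delivered by AAV to the dorsal striatum of adult mice, at a greater age in the SAPAP3 cohort, and the study describes some AAV expression in cortex along the needle tract. Ages of the libraries are not in the labels. The Control and Syn cohorts differ in cohort and in Xist expression as well as in the tag, so these cannot be told apart.

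The targeted gene went with the genotype labels. Dlgap3 stood at 57.5 to 75.2 FPKM in the 4 WT inputs and 25.4 to 31.0 in the 4 KO inputs, at 26.9 to 36.1 and 8.85 to 15.2 in the IPs, and at 36.6 to 60.4 and 21.8 to 25.2 in bulk striatum. All 10 astrocyte markers rose in the Control IP (median log2(FC) 3.02) and in the SAPAP3 WT IP (median 2.12), and all 10 neuron markers rose in the Syn IP (median 0.70). Microglial and endothelial markers, 10 each, fell in all 3 of these IPs. Libraries held between 23438112 and 84109800 counted reads. The inputs were not alike in cortical RNA. The summed level of 10 markers of cortical excitatory neurons was 269 to 313 CPM (library-scaled counts) in the Control inputs and 942 to 1224 in the Syn inputs, and 1 SAPAP3 WT input (replicate 1) had 311 against 876 to 1030 in the other 3. Bulk WT replicates 2 and 3 had 504 and 494, against 1374 and 1155 in replicates 1 and 4.

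Several members lie side by side in the genome (GRCm38.p6). Scn2b (chr9:45117876-45130070) and Scn4b (chr9:45138624-45154155) are neighbours on the plus strand and had the highest log2(FC) of all members in the Syn IP over its input. Scn1a (chr2:66270781-66440837), Scn9a (chr2:66480080-66635114) and Scn7a (chr2:66673426-66784910) lie in a row on the minus strand, and Scn1a and Scn7a changed in opposite directions in the Control IP. The 250 bases upstream of the annotated start of these genes are shown to set the neighbours side by side. They are chr9:45138374-45138623 for Scn4b, chr9:45117626-45117875 for Scn2b, chr2:66784911-66785160 for Scn7a and chr2:66440838-66441087 for Scn1a, from RefSeq on the strand of the gene. Capitals mark matches to any of 4 motifs, searched on both strands. The letters of the Sp1 motif were GGGCGG. Those of the E-box, bound by basic helix-loop-helix factors, were CAGCTG. Those of the core promoter motif bound by TBP were TATAAA. Those found in cAMP response elements were TGACG.
Scn4b: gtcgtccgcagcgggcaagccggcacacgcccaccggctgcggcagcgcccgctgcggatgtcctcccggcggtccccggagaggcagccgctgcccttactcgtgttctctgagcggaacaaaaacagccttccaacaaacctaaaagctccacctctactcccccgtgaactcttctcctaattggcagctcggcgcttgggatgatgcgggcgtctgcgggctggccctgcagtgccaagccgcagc
Scn2b: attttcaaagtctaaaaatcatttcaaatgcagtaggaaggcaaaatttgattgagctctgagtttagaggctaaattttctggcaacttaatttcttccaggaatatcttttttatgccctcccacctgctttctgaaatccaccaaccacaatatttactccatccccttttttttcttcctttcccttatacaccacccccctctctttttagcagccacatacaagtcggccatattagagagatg
Scn7a: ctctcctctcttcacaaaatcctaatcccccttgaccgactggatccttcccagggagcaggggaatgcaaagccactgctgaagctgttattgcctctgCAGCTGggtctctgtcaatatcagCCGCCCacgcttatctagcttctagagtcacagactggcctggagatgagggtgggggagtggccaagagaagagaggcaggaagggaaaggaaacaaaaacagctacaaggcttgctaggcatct
Scn1a: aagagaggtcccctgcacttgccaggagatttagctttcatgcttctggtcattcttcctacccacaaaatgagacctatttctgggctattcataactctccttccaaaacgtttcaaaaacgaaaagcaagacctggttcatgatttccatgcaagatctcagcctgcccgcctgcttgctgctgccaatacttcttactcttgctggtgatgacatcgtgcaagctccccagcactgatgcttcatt
Scn4b and Scn2b differed in base composition, with a GC content of 66% and 23 CpG upstream of Scn4b and of 38.4% and 1 CpG upstream of Scn2b. The median GC content over all 32851 promoters was 52.4%. Scn7a had the only matches among these 4, an Sp1 motif and an E-box. A RefSeq entry was found for 29 of the 39 members, some with several starts. Of their 39 promoters, 15 held the Sp1 motif (32.7% of all promoters did), 11 the E-box (13%), 6 the TGACG motif (17.8%) and 1 the TBP motif (12.4%). A match is a match of letters only.

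Levels were compared between genes as FPKM (fragments per kilobase of merged exon, scaled to library size and computed here). Of the 39 members, 18 had a mean over 10 FPKM in each of the 10 groups and 8 stayed under 1 FPKM in all 10, among them Scn10a and Scn11a of sensory neurons, Scn4a of skeletal muscle, Cacna1s of skeletal muscle and Cacna1f of the retina. Cacna1f and Scn4a had at most 8 and 9 counts in any library and were not tested. Cacng6 had at most 25 counts and was tested only in the Syn cohort and in bulk striatum. The other 36 members were tested in every comparison.

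Scn4b had the highest mean over the IP libraries, 207.3 FPKM. It had a mean of 397 FPKM ± 7.55 (SD, n = 4) in the Control input and 343 ± 33.1 in the Syn IP. Scn2b (beta2) reached 157 ± 3.25 in the Syn IP. Among pore genes, Scn8a (Nav1.6, of axon initial segments and nodes) led the Nav alpha members with 50.3 ± 5.66 FPKM in the Syn IP and 22.7 ± 1.19 in the Control IP, and Scn1a (Nav1.1) followed with 39.9 ± 5.58 and 18.7 ± 0.761. The ranges of Scn8a and Scn1a overlapped in the Syn IP, at 45.1 to 56.4 and 34.3 to 46.2 FPKM. Scn2a1 was higher than either, at 110 ± 2.31 in the Syn IP and 54.1 ± 1.04 in the Control IP.

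Among calcium channel genes, with each role group led by its highest mean over the IP libraries, the highest pore gene was Cacna1e (Cav2.3, R-type), at 37.2 to 40.6 FPKM in the Syn IP and 18.8 to 20.4 in the Control IP. Cacna1i (Cav3.3) led the T-type genes with 27.4 to 35.0 and 14.3 to 16.0, and Cacna1c (Cav1.2) led the L-type genes with 12.6 to 14.1 and 6.69 to 7.43. Cacna2d3 led the alpha2delta genes with 78.2 to 92.5 and 61.0 to 66.4. Cacnb1 led the Cav beta genes with 48.9 to 53.0 and 30.2 to 33.0. The Syn IP was above the Control IP without overlap for each of these 5. In this comparison 40.3% of 15468 genes were higher in the Syn IP at an adjusted p under 0.05. Cacng8, the TARP gamma-8, had the highest mean of the gamma family (20.4 FPKM) and went the other way in level, at 17.5 to 19.5 FPKM in the Syn IP and 22.8 to 26.7 in the Control IP. Over its own input, however, Cacng8 fell in the Control IP and rose in the Syn IP. The fall was no longer called in some other fits, such as with no filter on counts (log2(FC) -0.12) and without Control input replicate 2 (-0.13). Within the Syn IP Cacng3 was higher than Cacng8, at 26.9 to 30.0 FPKM. With the length of the longest curated transcript in place of merged exons, Cacnb3 led the Cav beta genes (48.1 FPKM over the IP libraries) and the leaders of the other 7 role groups stayed the same.

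**Figure D1:**
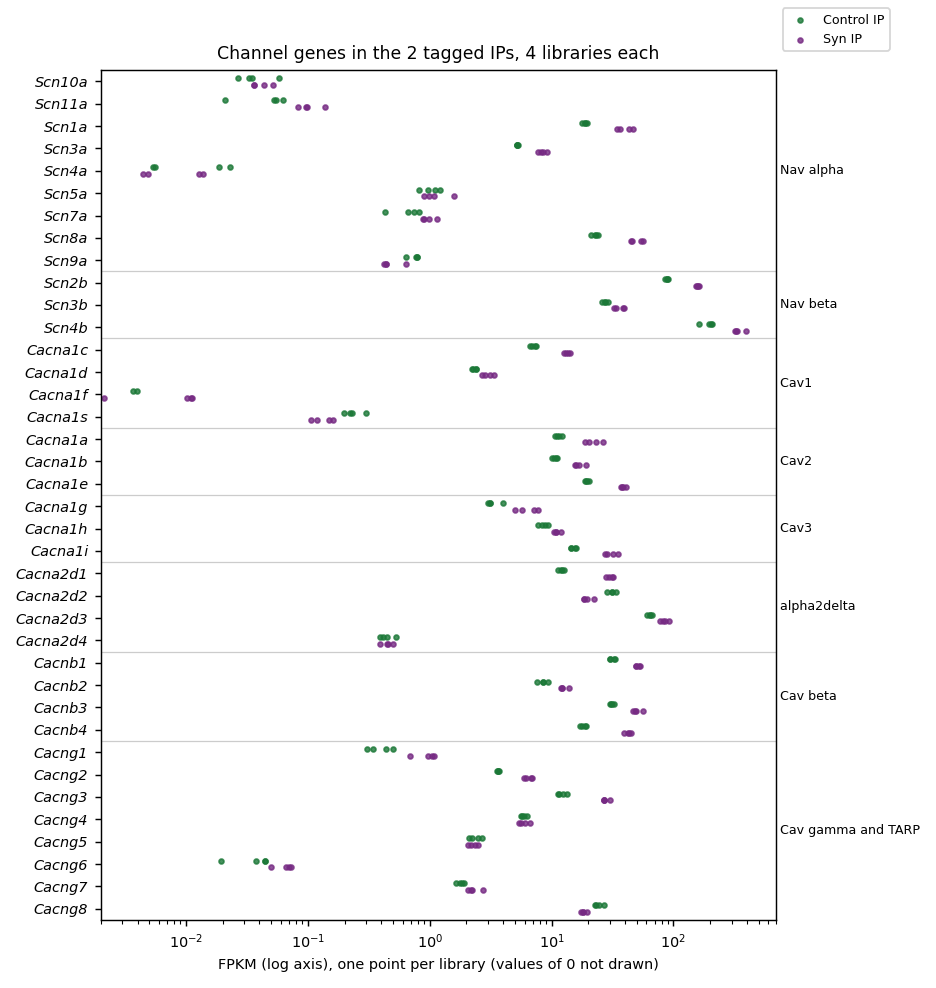
FPKM of 38 members in the Control IP (green) and the Syn IP (purple), 1 point per library, on a log axis, ordered by role. Scn4b and Scn2b lie far to the right, and Cacna2d2 and Cacng8 are members whose green points lie to the right of the purple ones.

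IP over input asks whether a transcript is more abundant on the tagged ribosomes than in the tissue. In the Control cohort nearly all channel genes fell. Of 36 members tested, 32 fell and 4 rose at an adjusted p under 0.05 (edgeR quasi-likelihood test, Benjamini-Hochberg adjustment over all genes), where 41.2% of all 15476 genes tested fell and 39.2% rose. Past a log2(FC) of 1, 5 members fell (13.5% of all genes) and 1 rose (13.4%). The median log2(FC) of the members was -0.56, beside -0.03 over all genes. All 4 Cav beta, 3 Cav2 and 7 tested gamma members fell, as did Scn2b, Scn3b and Scn4b. A fall is a lower share of the RNA in the IP than in its input. The part of RNA from untagged cells in the IP was not measured. Between tissue libraries, fewer cells of a type and less RNA per cell cannot be told apart.

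The fall was steepest for Cacng1, Cacng3 and Scn4b. Cacng1, a gamma subunit best known from skeletal muscle, had 1.15, 1.49, 1.07 and 1.48 FPKM in the Control inputs and 0.501, 0.303, 0.344 and 0.437 in the IPs, from 15 to 56 counts (log2(FC) -1.77, SE 0.22, adjusted p = 1.45e-05). Cacng3, a TARP, had 28.6, 29.7, 29.8 and 28.9 FPKM in the inputs and 13.5, 11.5, 11.4 and 12.3 in the IPs (log2(FC) -1.33, SE 0.06). Each IP library lay below each input library for both genes. Scn4b had 395, 403, 403 and 387 FPKM in the inputs and 208, 163, 202 and 196 in the IPs (log2(FC) -1.12, SE 0.07, adjusted p = 4e-08). It remained the most abundant member in the Control IP. Cacng7 and Cacna1h (Cav3.2) fell by 1.03 each on the log2 scale, and without Control IP replicate 4 the number past the limit was 3.

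Only 4 members rose in the Control IP. Scn7a, which encodes the atypical, sodium-sensing Nax channel of glia, had 0.199, 0.174, 0.155 and 0.188 FPKM in the inputs, from 37 to 40 counts, and 0.736, 0.431, 0.810 and 0.662 in the IPs, from 130 to 258 counts. The 2 sets did not overlap, and the log2(FC) was 1.82 (SE 0.20, adjusted p = 6.86e-06), a 3.53-fold rise. Cacna1g, the T-type Cav3.1 gene, had 1.92, 1.85, 1.54 and 1.71 FPKM in the inputs and 3.11, 3.99, 2.99 and 3.13 in the IPs (log2(FC) 0.84, SE 0.10). Cacna2d2 (alpha2delta-2) had 20.3 to 22.3 and 28.4 to 33.8 FPKM (log2(FC) 0.48, SE 0.05). Cacna1s was near the detection limit, with 19 to 35 counts in the inputs and 52 to 76 in the IPs (log2(FC) 0.59, SE 0.20, adjusted p = 0.018). It no longer passed the test when Control input replicate 1 was left out, or in the edgeR fit with total counts (log2(FC) 0.37, adjusted p = 0.111).

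Markers of other cells moved with these results. Of 10 striatal interneuron markers, 8 rose past the limit in the Control IP and Pvalb fell (log2(FC) -0.83). The median log2(FC) of the list was 2.01, and its summed level went from 279 to 295 CPM in the inputs to 1325 to 1491 in the IPs. Of 10 cortical excitatory markers, 6 rose, 3 of them past the limit, and 1 fell, not past it (summed level 269 to 313 and 473 to 718 CPM). The list was not uniform. Rorb rose most (log2(FC) 3.21), beside 0.83 for Slc17a7 and -0.26 for Tle4. Rorb was also the 1 marker of this list that rose in the SAPAP3 WT and KO IPs (1.195 and 1.22), where others fell. Of 10 oligodendrocyte markers, 1 rose and 3 fell at any fold. Of 10 neuron markers, 6 fell, 2 of them past the limit, and 2 rose (median log2(FC) -0.79, summed level 6306 to 6681 CPM in the inputs and 5146 to 5503 in the IPs). No marker in these lists was at 0. The part of these lists in the members that fell, and in the rise of Scn7a, Cacna1g and Cacna2d2, was not tested.

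In the Syn cohort the picture was the reverse for most members. Of 37 tested, 22 rose and 6 fell, where 35.5% of 16198 genes rose and 35.9% fell, and the median log2(FC) was 0.26 beside 0.00 over all genes. All 4 Cav beta members and Scn2b, Scn3b and Scn4b rose, as did 3 of 8 Nav alpha, 2 of 3 Cav2, 2 of 3 Cav3 and 3 of 4 alpha2delta members. Past the limit, 1 member rose (0.42% of all genes) and 1 fell (15.8%). The number that rose depends on scaling. With total counts in place of TMM factors, 8 rose and 9 fell, in a fit whose median over all genes was -0.21, and 0 rose and 3 fell past the limit.

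The member that rose past the limit was Scn4b. It had 165, 214, 146 and 152 FPKM in the Syn inputs and 330, 393, 328 and 323 in the IPs, without overlap (log2(FC) 1.01, SE 0.12, adjusted p = 3.65e-05). Its log2(FC) lies at the limit, and the count past the limit was 0 without any one of Syn input replicates 1, 3 and 4 or Syn IP replicate 2. Its neighbour Scn2b had 91.7, 97.8, 92.1 and 91.3 FPKM in the inputs and 153, 158, 161 and 156 in the IPs (log2(FC) 0.74, SE 0.04, adjusted p = 2.44e-07). Cacna2d3 rose by a log2(FC) of 0.67 (SE 0.08), Cacna2d2 by 0.58 (SE 0.07), Cacna1i by 0.57 (SE 0.08) and Scn8a by 0.49 (SE 0.08).

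The 6 members that fell in the Syn IP were Cacng7, Scn9a, Cacna1s, Cacna2d4, Cacna1d and Cacng5. Cacng7, a type II TARP, had 4.65, 4.41, 5.17 and 4.64 FPKM in the inputs and 2.20, 2.17, 2.71 and 2.06 in the IPs (log2(FC) -1.06, SE 0.09, adjusted p = 3.06e-06). Cacng7 thus fell in the Control IP and in the Syn IP alike. Leaving out Syn input replicate 1 or Syn IP replicate 2 put 3 and 2 members below the limit. Scn9a (Nav1.7) had 0.794, 1.12, 0.874 and 0.926 FPKM in the inputs and 0.423, 0.634, 0.438 and 0.437 in the IPs (log2(FC) -0.95, SE 0.15). These cohorts share no library. Of 36 members tested in both, 21 fell in the Control IP and rose in the Syn IP, beside 14.2% of 15385 genes tested in both. Another 5 fell in both (Cacna1d, Cacna2d4, Cacng5, Cacng7 and Scn9a, beside 17.6% of genes), 1 rose in both (Cacna2d2, beside 15.2%) and 1 rose in the Control IP and fell in the Syn IP (Cacna1s, beside 12.2%). Of 10 oligodendrocyte markers, 10 fell past the limit in the Syn IP (median log2(FC) -1.79), and of 10 markers of oligodendrocyte precursors 9 fell, 8 of them past the limit (median -1.95). Their part in the members that fell was not tested.

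**Figure D2:**
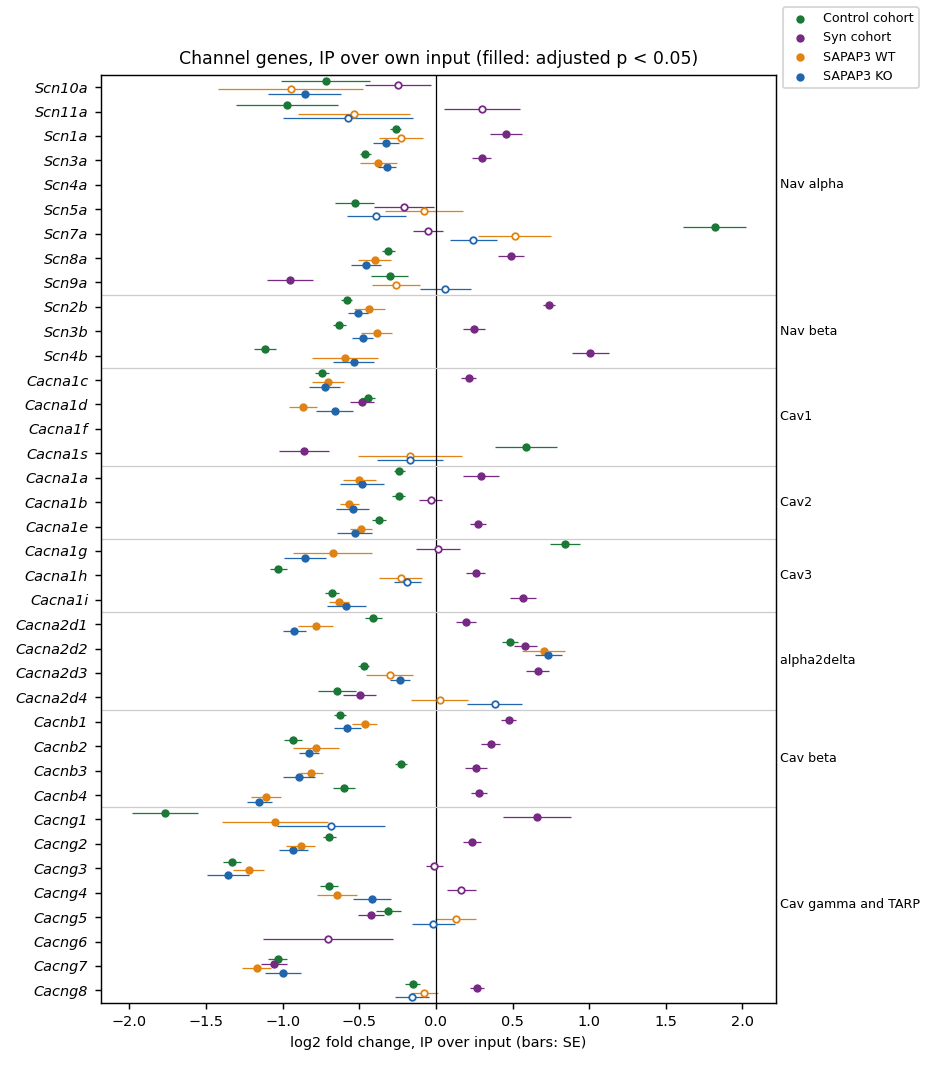
log2 fold change of IP over the input of the same cohort for 38 members (those tested have points), with SE bars, in the Control (green), Syn (purple), SAPAP3 WT (orange) and SAPAP3 KO (blue) libraries, 4 against 4 each. Filled points passed an adjusted p of 0.05. Most purple points lie right of 0 and most others left of it, Cacna2d2 lies right of 0 in all 4, and Cacng7 left of 0 in all 4.

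The difference between both enrichments was tested with an interaction term. Of 36 members, 24 were more enriched in the Syn IP and 4 in the Control IP, beside 35.8% and 34.3% of 16371 genes, and 10 (8.27%) and 2 (19.1%) passed the limit. The median difference was 0.74 on the log2 scale, beside 0.02 over all genes. It was largest for Cacng1 (2.43, SE 0.31, adjusted p = 2.36e-06), Scn4b (2.12, SE 0.15, adjusted p = 8.85e-10), Scn2b (1.32, SE 0.05) and Cacng3 (1.32, SE 0.08). The 2 members past the limit on the Control side were Scn7a (-1.87, SE 0.23, adjusted p = 1.3e-06) and Cacna1s (-1.45, SE 0.25), and Cacna1g (-0.83, SE 0.19) and Scn9a (-0.65, SE 0.20) also passed the test.

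Set directly against the Control IP, the Syn IP held more of 27 members and less of 4 (40.3% and 39.4% of 15468 genes). Past the limit, 9 were higher (8.39%) and 0 lower (19.4%). The median was 0.68, beside 0.01 over all genes. Among the 9 were Cacna2d1 (alpha2delta-1, a target of gabapentin) at a log2(FC) of 1.33 (SE 0.05), Cacng1 at 1.25, Cacnb4 at 1.22, Cacng3 at 1.18, Scn8a at 1.14, Scn11a at 1.10, Scn1a at 1.09 and Cacna1i at 1.02. Of these, Cacna2d1, Cacnb4, Scn8a and Scn1a were not among the 10 members past the limit in the difference between enrichments. Cacnb4 overlaps antisense exons of A430018G15Rik over 32.1% of its merged exon length, and the strand setting of the counting is not given in the sources used here. The 4 that were lower were Cacna1s (-0.83), Cacna2d2 (-0.67), Scn9a (-0.63) and Cacng8 (-0.42). Marker lists of 10 genes each differed in the same comparison. In the Syn IP 8 cortical excitatory markers were higher and 1 lower (median log2(FC) 1.96), 8 neuron markers were higher (0.75), and 8 interneuron markers were lower and 1 higher (-1.42). All 10 astrocyte (-3.16) and all 10 oligodendrocyte markers (-1.64) were lower. The part of these lists in the members was not tested.

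Scn7a and Cacna1g differed between the cohorts already in the inputs. Both were higher in the Syn IP than in the Control IP, by a log2(FC) of 0.56 (SE 0.17) and 0.95 (SE 0.14), although their enrichment was on the Control side. In the Syn inputs Scn7a had 0.938, 0.982, 0.986 and 1.11 FPKM, more than any Control input (log2(FC) 2.46, SE 0.11, adjusted p = 9.56e-09), and Cacna1g had 7.14, 5.23, 7.00 and 5.79 (log2(FC) 1.81, SE 0.11). Scn4b went the other way (log2(FC) -1.26, SE 0.10) and so did Cacng1 (-1.16, SE 0.22). Of 36 members, 14 were higher in the Syn input and 12 lower (26.4% and 27.5% of 15944 genes), and 2 (4.75%) and 2 (2.7%) passed the limit. Of 10 cortical excitatory markers, 9 were past the limit in the same comparison (median log2(FC) 2.79), and the median of 10 neuron markers was -0.66.

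Channel gene levels were also set beside cortical marker content over all 24 input and bulk libraries, which include the Control and Syn inputs just compared. Of these, 7 had a summed cortical marker level under 600 CPM (the 4 Control inputs, SAPAP3 WT input 1 and bulk WT 2 and 3) and 17 had 696 to 1374. This limit was chosen after the sums were seen, and no test was made. Cacna1g ranged from 1.54 to 2.27 FPKM in the 7 libraries and from 3.77 to 7.14 in the 17. Scn7a ranged from 0.155 to 0.385 and from 0.550 to 1.54. Scn4b ranged from 255 to 403 and from 146 to 224, with the high values in the 7. Cacng1 overlapped, at 0.970 to 1.94 and 0.299 to 0.984 FPKM. Medians in the 7 and the 17 were 17.3 and 26.2 FPKM for Cacna2d1 and 30.7 and 46.4 for Cacnb4. They were 27.8 and 40.2 for Scn8a, 21.5 and 35.6 for Scn1a, and 25.0 and 16.5 for Cacng8. Of the genes with these medians, only Cacna2d1 did not overlap. In all, 5 of 34 members with a mean of at least 1 CPM were higher in the 7 libraries without overlap (Cacna1h, Cacna2d3, Cacnb2, Cacng4 and Scn4b) and 5 lower (among them Cacna1g, Cacna2d1, Cacng7 and Scn7a), beside 2.28% and 4.88% of 14062 genes. All 4 Control inputs are among the 7, so cohort and cortical marker content cannot be told apart for them.

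**Figure D3:**
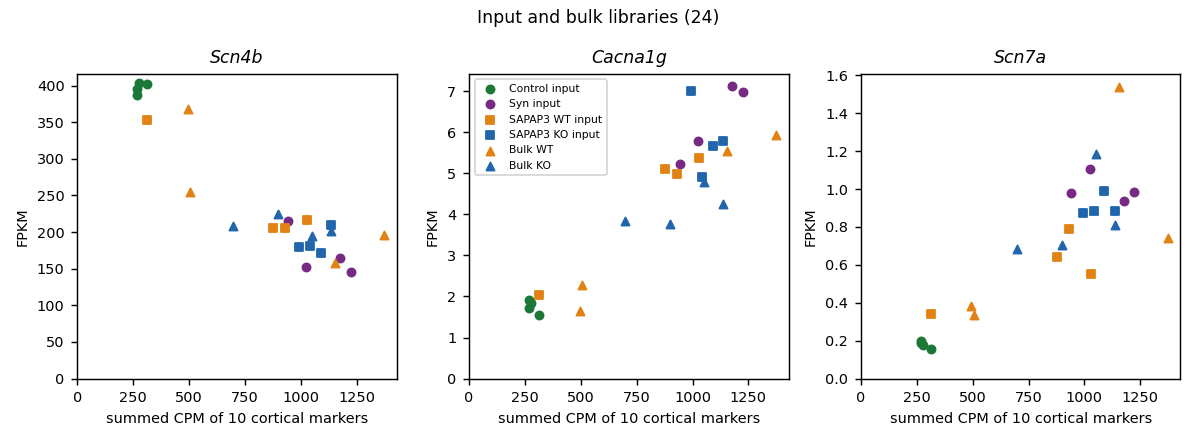
FPKM of Scn4b, Cacna1g and Scn7a against the summed CPM of 10 markers of cortical excitatory neurons in the 24 input and bulk libraries, 1 point per library. The 4 Control inputs, 1 SAPAP3 WT input and 2 bulk WT libraries lie left of 600 CPM, with high Scn4b and low Cacna1g and Scn7a.

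In the SAPAP3 cohort, most channel genes fell in the IP, in WT and KO mice. In WT mice, 23 of 36 members fell and 1 rose (34.6% and 32.7% of 15587 genes), and 4 (12.1%) and 0 (10.9%) passed the limit. In KO mice, 25 fell and 1 rose (35.9% and 36.1% of 15583 genes), and 2 (11.5%) and 0 (12.3%) passed the limit. The medians were -0.52 and -0.53, beside -0.03 and 0.00 over all genes. With total counts 9 members fell past the limit in KO mice, and without SAPAP3 KO IP replicate 1 it was 4, with 3 that rose. All 4 Cav beta and 3 Cav2 members and Scn2b, Scn3b and Scn4b fell in both genotypes. Of 10 oligodendrocyte markers, 8 rose in the IP of each genotype (median log2(FC) 0.75 and 0.77). Of 10 cortical excitatory markers, 4 fell and 1 rose in WT (median -1.50) and 8 fell and 1 rose in KO (median -1.20). Of 10 neuron markers, 6 fell and 1 rose in WT (median -0.55) and 8 fell and 1 rose in KO (median -0.49). The part of these lists in the members that fell was not tested. In WT, the call for Scn4b (log2(FC) -0.60, SE 0.22, adjusted p = 0.0325) was lost without input replicate 1 (log2(FC) -0.34, adjusted p = 0.0653) and without any one of IP replicates 2, 3 and 4 (log2(FC) -0.53 to -0.58).

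Cacng3, Cacng7 and Cacnb4 fell furthest. Cacng3 had 24.1, 24.4, 30.7 and 32.1 FPKM in the WT inputs and 11.6, 12.6, 13.3 and 11.5 in the WT IPs, and 27.5, 31.5, 28.3 and 27.6 in the KO inputs and 14.4, 12, 8.69 and 9.65 in the KO IPs (log2(FC) -1.22, SE 0.10, and -1.35, SE 0.14). Cacnb4 had 38.2 to 50.5 and 19.0 to 23.4 FPKM in WT and 46.1 to 50.5 and 19.2 to 24.8 in KO (log2(FC) -1.11, SE 0.10, and -1.15, SE 0.08). Cacng7 had 3.57 to 4.35 and 1.63 to 2.14 in WT and 4.09 to 5.03 and 1.85 to 2.57 in KO (log2(FC) -1.17, SE 0.10, and -1.0, SE 0.12). IP and input did not overlap for any of the 3 in either genotype, but the 3 were chosen as the largest falls. The fourth in WT was Cacng1 (log2(FC) -1.05, SE 0.34, adjusted p = 0.021), whose adjusted p was 0.0609 without WT input replicate 1 and 0.0541 without WT IP replicate 4.

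Cacna2d2 was the member that rose, in WT from 21.8, 14.9, 17.3 and 16.8 FPKM in the inputs to 35.2, 25.0, 29.2 and 29.1 in the IPs (log2(FC) 0.70, SE 0.14, adjusted p = 0.00154), and in KO from 15.5, 16.8, 15.3 and 15.9 to 27.1, 21.8, 29.6 and 26.7 (log2(FC) 0.73, SE 0.09). It rose in all 4 cohorts of IP and input, with a log2(FC) between 0.48 and 0.73. Most of 10 striatal interneuron markers rose in the same IPs, with medians of 2.01 (Control), 0.76 (Syn), 1.29 (SAPAP3 WT) and 1.10 (SAPAP3 KO). The number that rose was 8, 9, 8 and 8. Pvalb fell in the Control IP (log2(FC) -0.83) and in the SAPAP3 KO IP (-0.58). The part of these markers was not tested. Scn7a had 0.339, 0.550, 0.641 and 0.787 FPKM in the WT inputs and 0.727, 0.731, 1.12 and 0.821 in the WT IPs, which overlap as groups (log2(FC) 0.51, SE 0.24, adjusted p = 0.079), although the IP was the higher in 4 of 4 mice. With the mouse as a replicate block Scn7a passed the test (log2(FC) 0.53, adjusted p = 0.0168), as it did with the DESeq2 Wald test (adjusted p = 0.0493) and without WT input replicate 4 (log2(FC) 0.69, adjusted p = 0.033).

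The SAPAP3 WT and Control enrichments differed for 8 members. Of 36, 2 were higher in SAPAP3 WT and 6 lower (9.18% and 11.3% of 16032 genes), and 0 (0.986%) and 2 (1.78%) passed the limit. Cacna1g differed by -1.50 (SE 0.30, adjusted p = 0.00343). It fell in the SAPAP3 WT IP (-0.67, SE 0.26, adjusted p = 0.0405), a call that was lost, at a log2(FC) of -0.55 to -0.75, in 7 of the 8 fits that left out 1 library (all but the one without input replicate 1), and it rose in the Control IP. Scn7a differed by -1.29 (SE 0.33, adjusted p = 0.0141), and its adjusted p was 0.063 without Control mouse 3 and 0.0526 without SAPAP3 WT mouse 4, which left 1 member past the limit. Cacna1h differed by 0.82 (SE 0.16) and Cacna2d4 by 0.69 (SE 0.22). The other 4 were Cacnb3 (-0.57), Cacnb4 (-0.49), Cacna1d (-0.41) and Cacna1b (-0.30). With the mouse as a replicate block, 7 members were higher in SAPAP3 WT in place of 2. The count of higher members was 4 without SAPAP3 WT mouse 1, and it was 1 without Control mouse 1, 2 or 4 or SAPAP3 WT mouse 2 or 4. The count of lower members was 3 without Control mouse 4. The SAPAP3 WT inputs held 311 to 1030 CPM of cortical markers and the Control inputs 269 to 313, and the part of this in Scn7a and Cacna1g was not tested. Strain and age at injection also differ between these cohorts, and the tag of the SAPAP3 cohort is not named. These cannot be told apart here.

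**Figure D4:**
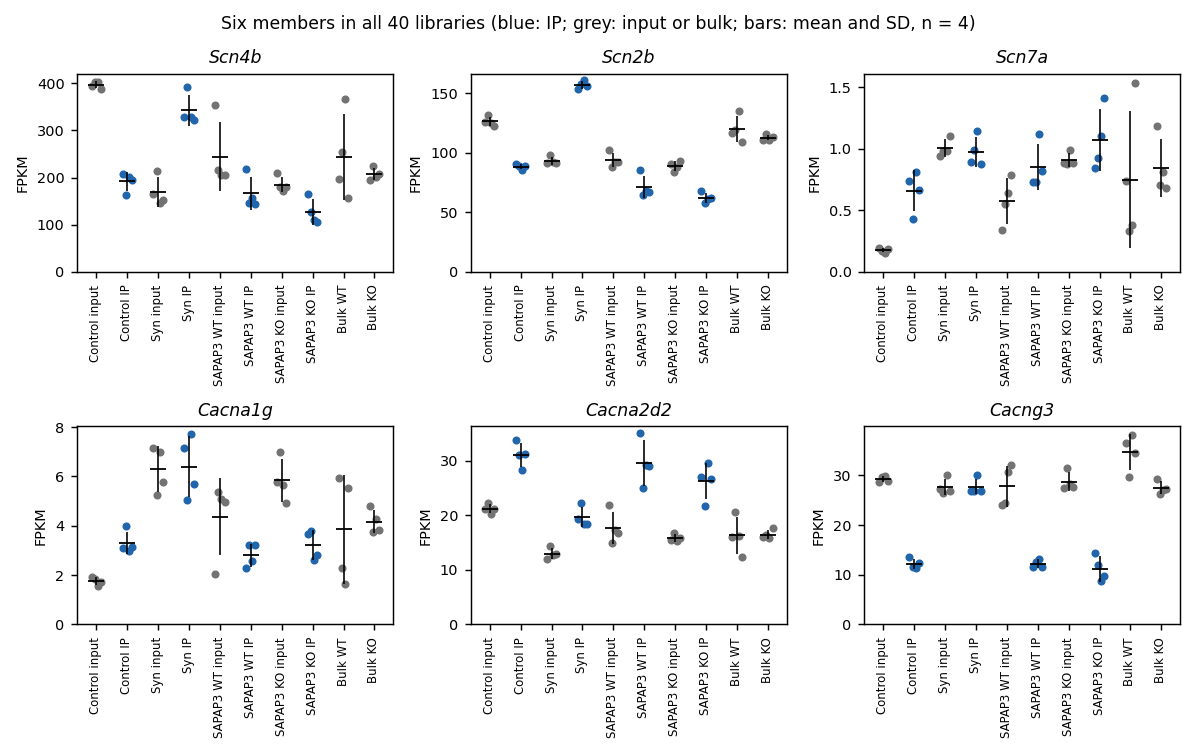
FPKM of Scn4b, Scn2b, Scn7a, Cacna1g, Cacna2d2 and Cacng3 in all 40 libraries by group, with mean and SD (n = 4), IP in blue and input or bulk in grey. By their means, Scn4b and Scn2b are above input in the Syn IP and below it in the other IPs, and Cacna2d2 is above input in all 4 IPs. SAPAP3 WT input 1 stands apart for Scn4b and Cacna1g. In bulk striatum, WT 3 is the highest for Scn4b, and WT 2 and WT 3 are both low for Cacna1g.

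The comparison of KO with WT asks whether channel expression changes without SAPAP3. No member passed the test in any of 3 sample kinds. At an adjusted p under 0.05, 0 of 36 members were called in the input (0.00641% of 15591 genes), 0 of 36 in the IP (0.0263% of 15198) and 0 of 37 in bulk striatum (0.0% of 16020). As no gene was called in bulk striatum, the targeted Dlgap3 was missed there too. Its FPKM did not overlap, at 36.6 to 60.4 in bulk WT and 21.8 to 25.2 in bulk KO. A count of 0 members in bulk striatum therefore does not show that the members were unchanged. At an unadjusted p under 0.05 in edgeR, the numbers were 4, 1 and 6 members, of 869, 399 and 792 genes. The DESeq2 Wald test, limma-voom and every other alternative listed for these comparisons also gave 0 members. The difference in IP enrichment between genotypes was called for 0 members (0.0% of 16059 genes), with 0 members and 203 genes at an unadjusted p under 0.05.

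In the input, the smallest p belonged to Scn7a, Scn10a and Scn9a. Scn7a had 0.339, 0.550, 0.641 and 0.787 FPKM in WT and 0.883, 0.874, 0.991 and 0.887 in KO, without overlap (log2(FC) 0.65, SE 0.20, adjusted p = 0.735). The two-sided exact permutation test of its 4 against 4 values gave 0.0286, the smallest p this design allows. Scn7a was chosen for its small p in this same comparison, so its lack of overlap and this p are no separate support. The KO inputs held 993 to 1135 CPM of cortical markers and the WT inputs 311 to 1030 (median log2(FC) of the list 0.44, with no marker called), with WT replicate 1 lowest in both the markers and Scn7a, and their part was not tested. Scn10a had 0.0402, 0.0707, 0.0735 and 0.0576 FPKM in WT and 0.0869, 0.0971, 0.111 and 0.0938 in KO, from 8 to 30 counts (log2(FC) 0.67, SE 0.23). Scn9a had 1.20, 0.793, 1.04 and 0.962 in WT and 0.854, 0.925, 0.635 and 0.707 in KO, with overlap (log2(FC) -0.35, SE 0.15).

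Scn4b had a lower KO mean than WT mean in all 3 sample kinds, and none of these differences passed the test. In the input it had 353.45, 216, 205 and 205 FPKM in WT and 209, 180, 172 and 181 in KO (log2(FC) -0.40, SE 0.18, adjusted p = 0.735). WT replicate 1 stood apart, and it is the input with few cortical markers. Without it the log2(FC) was -0.16. In the IP, Scn4b had 219, 146, 158 and 143 in WT and 166, 127, 110 and 106 in KO (log2(FC) -0.39, SE 0.18, adjusted p = 0.999), and -0.22 without WT replicate 1. In bulk striatum it had 196, 255, 368 and 157 in WT and 194, 224, 202 and 208 in KO (log2(FC) -0.24, SE 0.23, adjusted p = 0.984). Without WT replicate 3 the log2(FC) was 0.03. Without WT replicates 2 and 3, both low in cortical markers, it was 0.23, an alternative added after the data were seen.

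In the IP, Scn3b (beta3) had 24.9, 21.4, 22.9 and 21.7 FPKM in WT and 21.4, 18.8, 20.3 and 20.1 in KO (log2(FC) -0.17, SE 0.07, adjusted p = 0.999, exact permutation p = 0.0571). Cacng7 had 1.78, 1.63, 1.72 and 2.14 in WT and 2.57, 2.39, 1.85 and 1.89 in KO (log2(FC) 0.26, SE 0.13). Both genes overlapped between genotypes. In bulk striatum, Cacng2 (stargazin) had 8.94, 7.54, 9.25 and 8.70 FPKM in WT and 6.96, 6.66, 7.05 and 7.28 in KO, and Cacng3 36.5, 29.8, 38.1 and 34.6 in WT and 29.3, 26.2, 27.1 and 27.3 in KO. Neither overlapped (log2(FC) -0.30, SE 0.07, and -0.34, SE 0.08, both adjusted p = 0.984, both exact permutation p = 0.0286). In the input the same genes had log2(FC) of 0.06 and 0.05, and in the IP of -0.02 and -0.13, none of which passed the test. Cacng2 overlaps antisense exons of A730060N03Rik over 25.8% of its length. Scn10a had 0.0448, 0.0707, 0.0325 and 0.0901 in WT and 0.191, 0.0886, 0.194 and 0.124 in KO, from 14 to 100 counts, with overlap (log2(FC) 1.32, SE 0.36). These genes were chosen for their small p in the same comparisons, so a lack of overlap or a small exact p is no separate support.

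**Figure D5:**
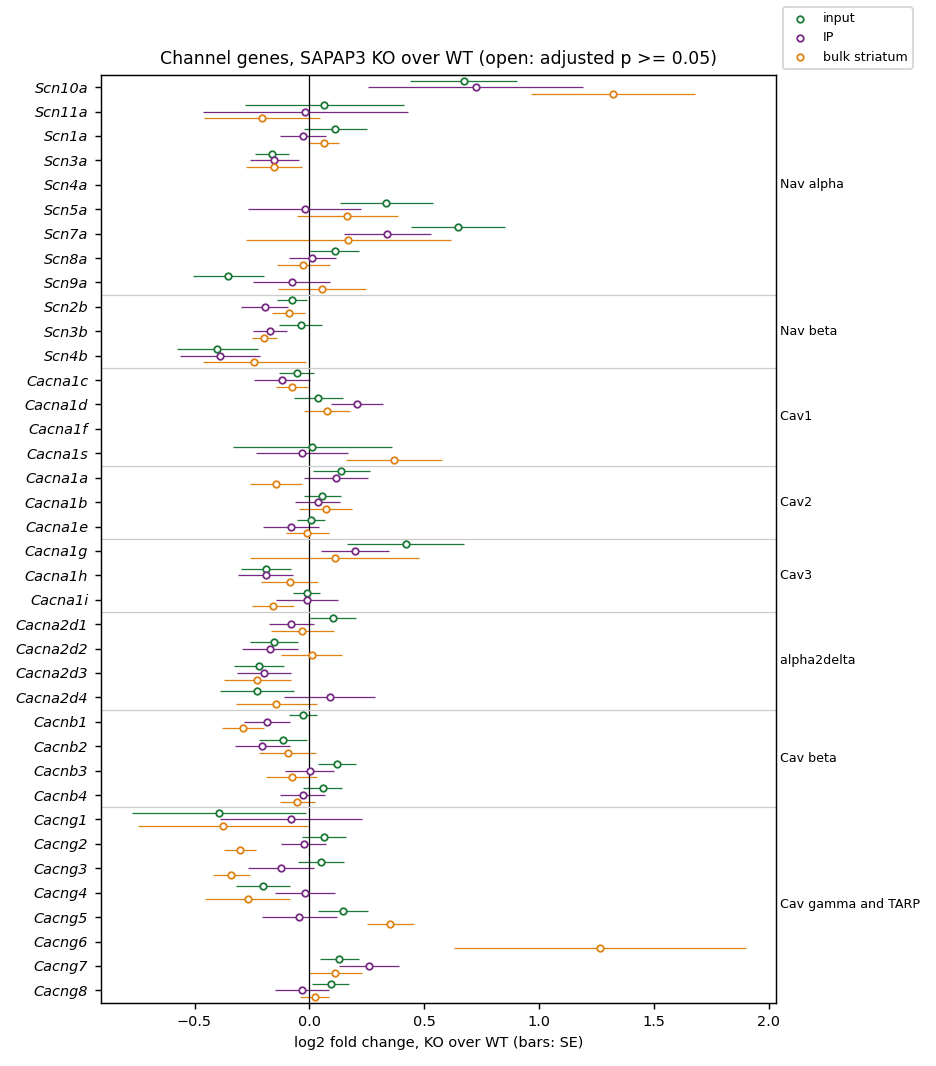
log2 fold change of SAPAP3 KO over WT for 38 members (those tested have points) in input (green), IP (purple) and bulk striatum (orange), with SE bars, 4 against 4 libraries each. All points are open, as no member passed an adjusted p of 0.05, and the widest bars belong to members of few counts.

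Genes that bind or regulate these channels, and some related channels, were taken as a list of 28 symbols, the channel partners. Among them were Scn2a1, calmodulins, FGF homologous factors, ankyrins, RIM proteins and the NALCN leak channel complex. Some of them, such as Scn2a1 and Tpcn1, encode channels themselves. In the Control IP, 7 rose and 17 fell, beside 39.2% and 41.2% of all genes (median log2(FC) -0.37). Past the limit, 4 rose and 1 fell, beside 13.4% and 13.5% of all genes. Ank2 (ankyrin-B, 1.27), Nrcam (a cell adhesion molecule, 1.28), Gem (a small GTPase that inhibits calcium channels, 2.08) and Tpcn1 (an endolysosomal channel, 1.75) rose past the limit, and Unc79 of the NALCN complex fell past it (-1.02). In the Syn IP, 15 rose and 8 fell, beside 35.5% and 35.9% of all genes (median 0.21). Rem2, a GTPase related to Gem, was highest (1.13) and Tpcn2 lowest (-2.09). Scn2a1 fell in the Control IP (-0.18) and rose in the Syn IP (0.53), as Scn1a and Scn8a did. In the SAPAP3 WT IP, 5 rose and 17 fell, beside 32.7% and 34.6% of all genes. In the SAPAP3 KO IP, 5 rose and 18 fell, beside 36.1% and 35.9%. Gem was again highest (1.56 in WT and 1.67 in KO). No partner passed the test between genotypes in input, IP or bulk striatum.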

How the data were processed

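Per the labels and the study's methods, reads of 40 striatal libraries were aligned to mm10 with STAR. HTSeq is named in the submitters' processing notes, and its annotation, strand setting and version are not given in the sources used here. The labels and the methods name different library kits. The authors deposited raw read counts for 24060 symbols (2 listed more than once), without normalization, and all 40 columns were used. A batch correction with ComBat is named by the study, but the deposited counts are whole numbers.

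Groups came from the labels. Replicates are separate animals by their labels, except that 1 animal number labels a WT and a KO bulk library, and the Syn IP and input libraries carry different animal numbers. CPM and FPKM were computed here from the counts with TMM factors over all libraries and merged RefSeq exon lengths (GRCm38.p6, the assembly of mm10, 99.2% of symbols). No member had a near-identical copy (95% identity over 50% of the length), and 14 share exon bases with another gene, 5 over more than 10% of their length.

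Each comparison was fitted across all genes in R 4.3.3 with edgeR 4.0.16 (filterByExpr, TMM, quasi-likelihood F-test, only the groups compared) and Benjamini-Hochberg adjustment. A call needed an adjusted p under 0.05, and past the limit also a log2(FC) over 1 or under -1. No fold limit was used between genotypes. Single values were compared by two-sided exact permutation of mean log2(CPM + 0.1), with a smallest p of 0.0286. Alternatives were limma-voom (limma 3.58.1), DESeq2 1.42.0 (Wald test and size factors), total counts, no filter, FPKM above 5 in 4 libraries, a replicate block, Xist as a covariate, and leaving out each library (96 fits). On simulated counts with 200 genes changed by a log2(FC) of 1, 91.7% of those tested were recovered for Control IP over input (15344 genes) and 6.8% of calls were false. The shares were 84% and 6.1% for Syn IP over input (16058 genes), 81% and 5.3% for KO over WT IP (15116 genes), and 81.3% and 3.6% for the Syn against Control difference (16138 genes). Only these 200 genes differed in the simulation, and its libraries were drawn independently. In the real IP over input fits most genes were called, so these shares do not cover errors of scaling or the pairing of libraries.

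The numbers pair IP with input, by animal in the Control and SAPAP3 cohorts and by title number in the Syn cohort. Deviations of same-numbered libraries correlated at 0.244 to 0.798, each best with its own number.

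Members described per library were the highest of each role group over the IPs, the 3 largest called changes in each direction past the limit for each IP over input comparison and for the Syn against Control difference, and the 3 smallest p in each genotype comparison. Cacna1g and Cacna2d2 were added after their values were seen. The values of 1 member are not reported here, although counts over all members include it. The members and lists were chosen with earlier results of these data known. Figures were drawn with matplotlib 3.10.9.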

Additional observations from a re-analysis of the deposited data

Results flagged for a closer look

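Differences between cohorts in IP enrichment that passed the interaction test and the limit were 12 between the Syn and Control cohorts. On the Syn side they were 2.43 for Cacng1, 2.12 for Scn4b, 1.32 for Scn2b, 1.32 for Cacng3, 1.29 for Cacnb2, 1.29 for Cacna1h, 1.27 for Scn11a, 1.24 for Cacna1i, 1.14 for Cacna2d3 and 1.10 for Cacnb1. On the Control side they were -1.87 for Scn7a and -1.45 for Cacna1s, each as a log2 difference. Between the SAPAP3 WT and Control cohorts they were -1.50 for Cacna1g and -1.29 for Scn7a.

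Among 190 sets of 4 libraries looked at (19 members in 10 groups), 13 held 1 library whose gap to the rest passed the 95% limit of Dixon's test, and chance alone gives about 1 in 20. In tissue libraries these were Scn4b at 353.45 FPKM in SAPAP3 WT input 1 (others 205 to 216), Cacna1e at 30.0 in bulk WT 2 (others 35.2 to 36.0), Cacnb4 at 30.7 in Control input 3 (others 24.5 to 25.0) and Scn7a at 0.991 in SAPAP3 KO input 3 (others 0.874 to 0.887). SAPAP3 KO input 2 stood apart for Cacna2d3 (54.1, others 49.98 to 50.4) and Cacng7 (5.03, others 4.09 to 4.20), and Syn input 2 for Cacna2d3 (60.7, others 49.7 to 50.7) and Scn2b (97.8, others 91.3 to 92.1). In IP libraries they were Scn2b at 85.4 in SAPAP3 WT IP 1 (others 64.8 to 67.9), Scn4b at 393 in Syn IP 2 (others 323 to 330), Scn9a at 0.634 in Syn IP 2 (others 0.423 to 0.438), Scn9a at 0.636 in Control IP 3 (others 0.767 to 0.787) and Cacng3 at 30.0 in Syn IP 3 (others 26.9).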

How the results depend on the processing

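Under the settings other than leaving out a library, 2715 log2(FC) of members kept their direction where called and their side of the threshold, 37 gained and 34 lost the call, and Cacna2d1 in the Syn IP turned to -0.0085 (adjusted p = 0.913) with total counts. With total counts the median log2(FC) of all genes was -0.25, -0.21, -0.20 and -0.21 in the Control, Syn, SAPAP3 WT and SAPAP3 KO IPs, beside -0.03, 0.00, -0.03 and 0.00 with TMM factors. Members passing the test were 8 higher in the Syn IP, with 0 higher and 3 lower past the limit, and 9 lower past the limit in the SAPAP3 KO IP, with total counts. A filter of FPKM above 5 tests fewer members. It left 1 higher and, past the limit, 0 higher and 3 lower in the Control IP, 9 higher and 2 lower and 0 and 0 past the limit in the Syn IP, 2 lower past the limit in the SAPAP3 WT IP, 2 lower in the Syn IP against the Control IP, 1 and 1 past the limit between inputs, 1 lower and 0 past the limit for the Syn against Control difference, and 1 higher, 3 lower and 0 past the limit for SAPAP3 WT against Control. The SAPAP3 WT IP had 2 higher with DESeq2 and with the replicate block, and the KO IP 4 lower past the limit with no filter. SAPAP3 WT against Control had 1 higher with DESeq2 size factors and with no filter and 7 with the replicate block. These were the only counts of members, 2 in all, that the block moved by over 1.5 times. The cause was not tested.

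When 1 library (or mouse) was left out, counts ranged as follows. Control IP: 3 to 4 higher, 28 to 32 lower, 1 to 1 and 3 to 6 past the limit. Syn IP: 20 to 22, 6 to 7, 0 to 1 and 1 to 3. SAPAP3 WT IP: 1 to 2, 20 to 24, 0 to 0 and 3 to 5. SAPAP3 KO IP: 1 to 3, 25 to 27, 0 to 0 and 2 to 4. Syn IP against Control IP: 27 to 27, 4 to 4, 7 to 12 and 0 to 0. Inputs: 14 to 15, 12 to 13, 2 to 3 and 2 to 2. Syn against Control difference: 24 to 25, 4 to 5, 10 to 11 and 2 to 3. SAPAP3 WT against Control: 1 to 4, 3 to 9, 0 to 0 and 1 to 2. No genotype comparison gained a member. Without both libraries of SAPAP3 WT mouse 1, added after the data were seen, 24 members fell in the SAPAP3 WT IP. Depth limits the members of few counts, such as Scn10a with 3 to 100 and Scn11a with 4 to 59 counts in a library. The Xist covariate could not be fitted in bulk striatum.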
